A study of Mus musculus with 8 samples.

Results

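Ctnna2 encodes alpha-N-catenin, the neuronal alpha-catenin, and its transcript was examined here as a target of the RNA-binding protein Ptbp2 in the embryonic mouse cortex. The Ctnna2 tags were the mapped sequence tags whose midpoint lay on the minus strand of chromosome 6 between 76830000 and 77931000 (mm9), a range of 1101 kb that the gene reads from the high to the low coordinate. They numbered 7188 of 3098854 tags in all, or 0.232%. The locus was selected on the clustering of its pooled tags, so its tag numbers, clusters and density are given as descriptions without a test.

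RNA crosslinked to Ptbp2 was recovered by HITS-CLIP, in which ultraviolet light bonds a protein to the RNA it touches and the bound fragments are isolated and sequenced. The tissue was cortex of CD1 mice at embryonic day 18.5, with 4 libraries from brain 2 and 4 libraries from brain 1. Both brains were labelled wild type (WT in the sample titles) and no treatment was named, so the comparison between them is one of replicate animals. Libraries held between 228424 and 545387 tags, with 1165859 in brain 2 and 1932995 in brain 1. The 4 libraries of a brain come from 1 animal, so the p-values below measure technical spread among the libraries of each animal. Sample titles also carry a letter, shared by libraries 1 and 2 and by libraries 3 and 4 of a brain, and the labels leave its meaning unstated. Libraries of input RNA or of another antibody were not analysed here, so a high tag density from strong binding cannot be told apart from one that comes from an abundant transcript.

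Alpha-catenins join the cadherin and beta-catenin complex of adherens junctions to the actin cytoskeleton. The neuronal member is known for stabilising synaptic contacts and dendritic spines. Ptbp2, the neuronal polypyrimidine tract binding protein, contacts pyrimidine-rich stretches of precursor RNA, many of them in introns, and regulates alternative splicing during neuronal development. Lrrtm1, which encodes a synaptic transmembrane protein with leucine-rich repeats, is nested in Ctnna2. The long noncoding RNA genes 6330415B21Rik and Gm38837 also lie within the span of Ctnna2 in the RefSeq annotation of GRCm38.p6, which was used for names only. The strand of these noncoding genes was not used, so any tags of theirs on the minus strand would be counted with Ctnna2. Exons and introns were not assigned to the tags.

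Tags of the range lay almost entirely on the strand of Ctnna2. The minus strand held 7188 tags and the plus strand 167, a ratio of 43.0. The minus strand share was 97.7% (exact 95% interval 97.4 to 98.1%), against 57.4% of all tags of the series, which pool genes of both strands. Such a share was usual for densely clustered loci. Over the 183 linked groups described below, the median share on the group's own strand was 98.97%, and that of the Ctnna2 group 99.01%. In the 500 kb upstream of the range the minus strand held 269 tags and the plus strand 161, and in the 500 kb downstream 277 and 105. Density on the minus strand was 6.53 tags per kb in the Ctnna2 range, against 0.538 per kb upstream and 0.554 per kb downstream. The step lay close to the limits of the range: the first 10 kb inside the upstream end held 74 minus strand tags and the adjoining 10 kb outside held 2. At the downstream end the last 10 kb inside held 40 tags and the adjoining 10 kb outside held 3. All intervals here cover counting error only, since reads copied by amplification are not independent molecules.

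The few plus strand tags, which would include those of Lrrtm1, were spread thinly. They numbered 14, 26, 24 and 9 in brain 2 and 29, 16, 17 and 32 in brain 1. Of the 110 windows of 10 kb that cover the range, 48 held 0 plus strand tags and none reached 20. The fullest, from 76870001 to 76880000, held 18, with 2, 2, 3 and 1 in the libraries of brain 2 and 3, 3, 0 and 4 in those of brain 1. The next, from 77190001 to 77200000, held 16 (5 in brain 2 and 11 in brain 1). Both brains contributed to each. The other 3 of the 5 fullest started at 77080001, 77430001 and 77740001 and held 8, 7 and 7 tags. In the first of the 5, minus strand tags numbered only 20, so that the strands were nearly level there. Clusters with 5 or more tags over a base on the plus strand numbered 2 in brain 2 and 1 in brain 1.

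Minus strand tags were found along the whole gene. All 110 windows of 10 kb held tags, with a median of 45 and a range of 5 to 338, and 24 windows held 100 or more. Over the genome, 34816 strand-specific windows held 20 or more tags, and 2020 held 100 or more. The 10 fullest Ctnna2 windows together held 29.4% of the gene's tags. In steps of 100 kb from the upstream end, density was 5.13, 3.19, 4.18 and 4.09 tags per kb over the first 400 kb. It was then 14.41, 14.88 and 10.29 tags per kb over the next 300 kb. The last 400 kb held 5.09, 4.15, 3.2 and 3.27 tags per kb. The density was thus highest in the middle of the gene, and the parts before and after it were at similar levels.

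**Figure D1:**
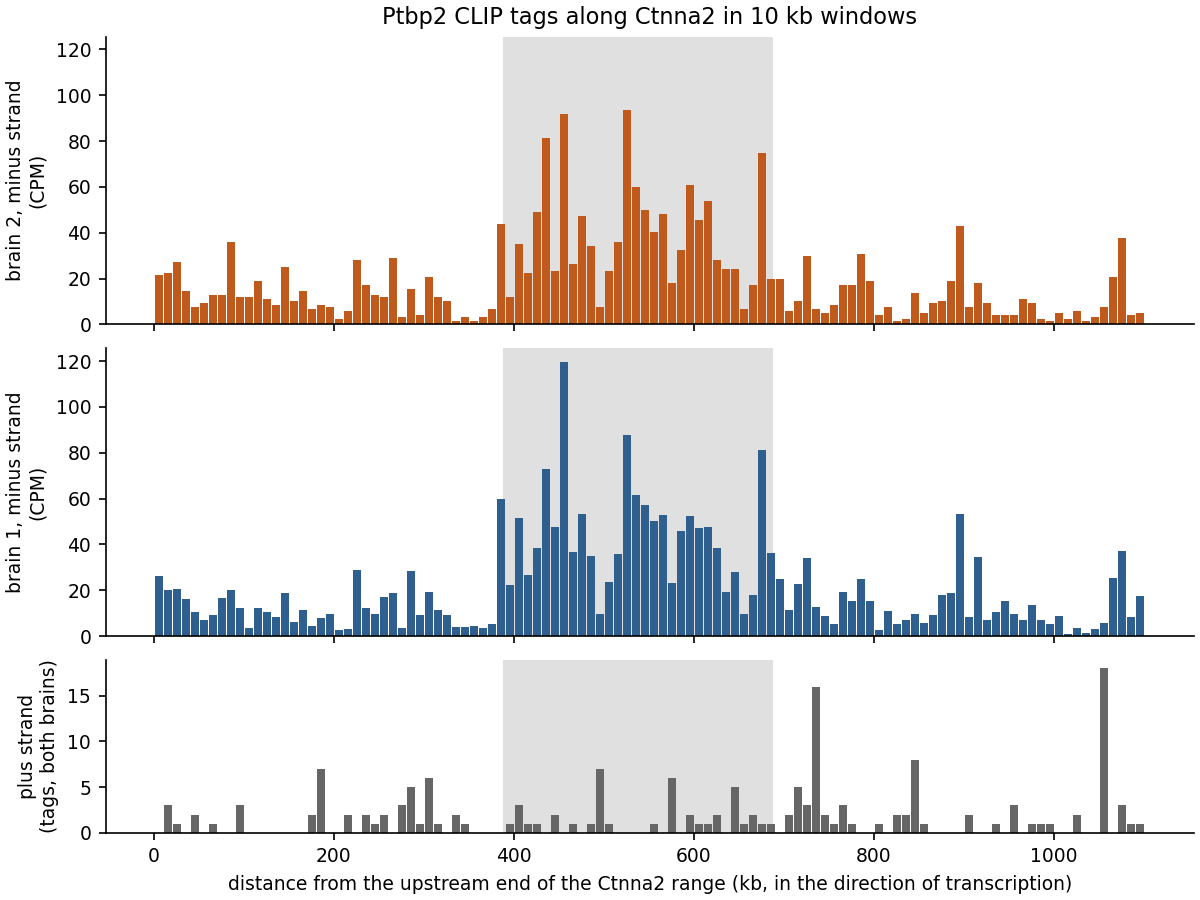
Ptbp2 tags along Ctnna2 in windows of 10 kb, in CPM (tags scaled to library size) for brain 2 (top) and brain 1 (middle) on the minus strand, and as tags of both brains on the plus strand (bottom), against distance in kb from the upstream end; grey marks the stretch of 73 linked clusters. The fullest windows of both brains lie in the grey stretch, and no plus strand window exceeds 18 tags.

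The tag-rich middle was delimited by clusters. Overlapping tags of all libraries on the same strand were joined into clusters, and height is the number of tags that lie over the deepest base. Ctnna2 held 104 clusters of height 10 or more, of 22803 in the genome. Linking those within 20 kb of each other placed 73 of them in a single group from 77244300 to 77541943, which begins 389 kb from the upstream end and spans 298 kb, or 27.03% of the range. This stretch held 3997 tags (55.6% of Ctnna2), at 13.4 tags per kb, against 3.97 per kb in the rest of the range. The other 31 clusters lay outside it.

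Tag density fell near the upstream limit of the stretch in both brains. In the 50 kb just inside it the libraries of brain 2 held 53, 61, 85 and 47 tags, and in the 50 kb just upstream 9, 7, 12 and 14. Libraries of brain 1 held 123, 110, 91 and 110 tags inside and 42, 24, 28 and 14 upstream. In all libraries together that was 680 tags inside against 150 upstream, with more tags inside in each of the 8 libraries. The fall did not lie at the limit itself. The window of 10 kb that contains the limit, from 77540001 to 77550000, held 167 tags. Those starting at 77550001, 77560001, 77570001 and 77580001 held 18, 11, 11 and 12. Most of the 150 tags upstream thus lay in the part of the first window past the limit. At the downstream limit the step was smaller, with 505 tags in the 50 kb inside and 311 in the 50 kb beyond. The limits were set by clusters of the same tags, so these values describe the stretch and test nothing.

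Tag density along the gene was alike in the 2 brains. Over the 110 windows of 10 kb, tags of brain 2 and brain 1 had a Pearson correlation of 0.943 and a Spearman correlation of 0.903. Over 1102 bins of 1 kb, of which 230 were empty, the Pearson correlation was 0.839. Pairs of libraries from different brains had Pearson correlations over the 10 kb windows of 0.756 to 0.8803 (median 0.812, 16 pairs). Pairs from the same brain had 0.656 to 0.890 (median 0.850, 12 pairs). Neighbouring windows and libraries share the transcript and its mappable sequence, so these values are descriptive.

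The 5 fullest windows all lay in the linked stretch. From the upstream end they were those starting at 77490001, 77470001, 77400001, 77390001 and 77250001, with 236, 338, 279, 189 and 244 tags. The fullest, at 77470001, held 22, 30, 40 and 15 tags in the libraries of brain 2 and 77, 46, 53 and 55 in those of brain 1. In CPM, which scales a count to the total tags of its library, that was 89.1 ± 21.6 in brain 2 and 118 ± 16.9 in brain 1 (SD, n = 4 each), and the brains overlapped. The window at 77400001 held 19, 26, 36 and 28 tags in brain 2 and 44, 36, 37 and 53 in brain 1. In CPM these were 94.6 ± 23.8 in brain 2 and 88.1 ± 16.5 in brain 1 (SD, n = 4), again overlapping.

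The tallest cluster of Ctnna2 lay from 77360814 to 77360872, 570 kb from the upstream end, with 62 tags over its highest base. Its 63 tags were 0, 4, 7 and 12 in the libraries of brain 2 and 12, 11, 5 and 12 in those of brain 1. Of these, 47 (74.6%) had the same start and end, and they came from 7 libraries. This cluster was thus mainly a single repeated tag position that both brains contained.

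In the next 3 clusters the most frequent position held a smaller share of the tags. The cluster from 77472670 to 77472717 had a height of 46, with 1, 2, 8 and 3 tags in brain 2 and 10, 6, 5 and 11 in brain 1, and its most frequent position held 52.2%. That from 77498465 to 77498505 also had a height of 46, with 3, 5, 7 and 5 tags in brain 2 and 11, 7, 4 and 4 in brain 1. That from 77497412 to 77497462 had a height of 40, with 3, 3, 8 and 2 tags in brain 2 and 4, 9, 6 and 5 in brain 1. In the last of these the 40 tags took 11 positions and the most frequent held 17.5%. All 8 libraries contributed to each of the 3, and counts of brain 2 and brain 1 overlapped in each.

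**Figure D2:**
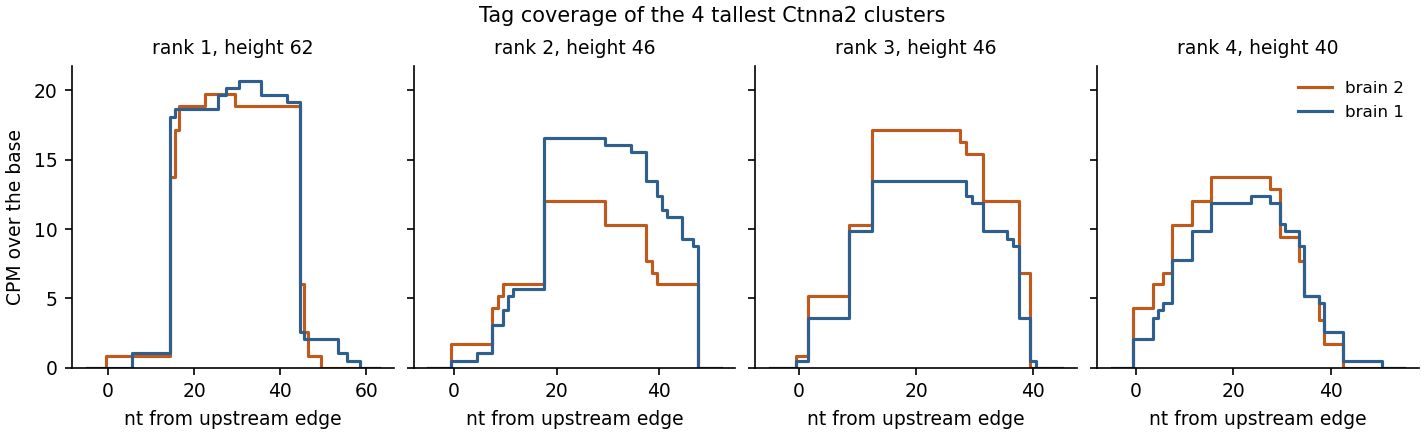
Coverage of the 4 tallest Ctnna2 clusters, in CPM over each base against distance in nt from the upstream edge, for brain 2 (orange) and brain 1 (blue). The outlines of the brains rise and fall over the same bases in each cluster, with heights over both brains of 62, 46, 46 and 40 tags.

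Ranks 5 and 6, from 77404511 to 77404563 and from 77406151 to 77406205, had heights of 37 and 36. The fifth held 18 tags in brain 2 and 19 in brain 1, and the sixth 18 and 18. Brain 2 gave 37.6% of all tags, so its part of these clusters lay above its part of the depth. Ranks 7 to 20 had heights of 34 to 25. Of the 20 tallest clusters, 18 lay in the linked stretch. The other 2 lay downstream of it. One, of height 26, ran from 77037709 to 77037761, and one of height 25 ran from 76855938 to 76856048. The cluster at 77037709 drew on 5 libraries, with 0, 0, 4 and 3 tags in brain 2 and 4, 7, 0 and 8 in brain 1.

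Many of the tall clusters stood in close series. The second tallest, at 77472670, opened a run of 5 clusters that ended at 77473854, with heights of 46, 17, 10, 34 and 28 and gaps of 622, 145, 86 and 68 nt. Another 5 clusters ran from 77333758 to 77335738 with heights of 12, 11, 13, 10 and 22. A pair from 77251565 to 77251649 and from 77251653 to 77251740, of heights 29 and 27, lay 3 nt apart. Of 103 gaps between neighbouring Ctnna2 clusters, 33 (32.0%) were of 1000 nt or less and 13 (12.6%) of 200 nt or less. In the rest of the series 12.2% of gaps were of 1000 nt or less and 6.32% of 200 nt or less. The median gap was 3760 nt in Ctnna2, against 50668 nt elsewhere. The number of clusters was 59 and the median gap 5969 nt when repeated positions of a library were counted once, and the median gap was 6224 nt without library 1 of brain 1. The gene was chosen for such clustering, so the contrast in spacing is a description. The gaps elsewhere run along whole chromosomes and include those between loci, whereas the Ctnna2 gaps all lie in its range. Within the linked stretch the median gap was 1765.5 nt, against a median of 2582 nt over the 183 linked groups.

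**Figure D3:**
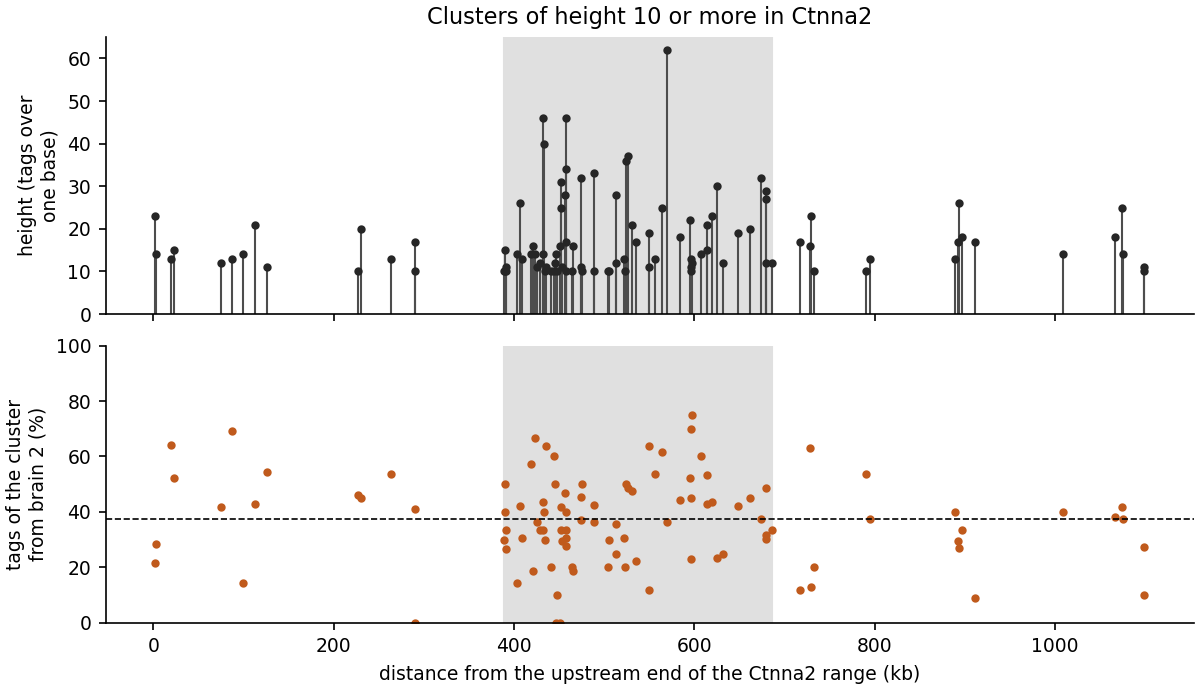
The 104 clusters of height 10 or more in Ctnna2, as height in tags over a single base (top) and as percent of the cluster's tags from brain 2 (bottom), against distance in kb from the upstream end; grey marks the linked stretch and the dashed line the 37.6% of all tags that came from brain 2. Cluster heights range from 10 to 62, and the points of the lower panel scatter on both sides of the line from 0 to 75.0%.

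In shape the Ctnna2 clusters were close to clusters elsewhere. Their median height was 14 in Ctnna2 and 14 in the rest of the series, with 28.8% against 26.1% at a height of 20 or more. Their median width was 49 nt in Ctnna2 and 42 nt elsewhere. All 8 libraries were present in 28 Ctnna2 clusters (26.9%, exact 95% interval 18.7 to 36.5%), against 23.8% of other clusters, which lies within that interval. A single position held over 50% of the tags in 33 Ctnna2 clusters (31.7%, interval 22.9 to 41.6%), against 33.4% elsewhere. Fewer tags of Ctnna2 lay alone: single tags made up 21.1% of Ctnna2 tags, against 38.2% of all tags. Clusters of height 5 to 9 held 19.3% of Ctnna2 tags against 13.0% of all tags, those of height 10 to 19 held 14.4% against 7.34%, and those of 20 or more held 13.0% against 8.40%. A locus with more tags has fewer that lie alone, so these shares follow density and were not tested.

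Of the 104 clusters, 101 held tags of both brains, none held tags of brain 2 alone and 3 held tags of brain 1 alone. In the rest of the series, of 22699 clusters, 22496 held tags of both, 7 tags of brain 2 alone and 196 tags of brain 1 alone. The 3 of Ctnna2, picked out after their values were seen, lay from 77479829 to 77479865 with 16 tags, from 77483779 to 77483853 with 17 and from 77640527 to 77640566 with 10. Each drew on all 4 libraries of brain 1, which was the deeper brain. Pooling tags before clustering favours sharing, so clusters of height 5 or more were then built from the tags of each brain separately. Of 81 such clusters in brain 2, 59 overlapped a cluster of brain 1 (72.8%, exact 95% interval 61.8 to 82.1%), against 66.7% over the genome, which lies within the interval. Of 175 in brain 1, 59 (33.7%, interval 26.8 to 41.2%) overlapped a cluster of brain 2, against 33.0% over the genome. The share for brain 2 moved to 56.8% without library 1 of brain 1, the deepest library.

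Tag ends recurred between the brains to the base. The 5′ end of a tag marks where the sequenced fragment began. Of 1744 distinct 5′ ends of brain 2 in Ctnna2, 486 (27.9%, exact 95% interval 25.8 to 30.04%) were also 5′ ends in brain 1. When the ends of brain 2 were shifted by 1 to 5 nt either way, between 3.33% and 4.64% coincided. Over the genome 18.9% of brain 2 ends recurred in brain 1 without a shift. The gene was chosen for the clustering of its tags, so the contrast with the genome is a description. Outside the clusters of height 10 or more, 296 of 1425 ends of brain 2 in Ctnna2 recurred (20.8%, interval 18.7 to 23.0%), against 1.89% and 1.61% at shifts of 1 nt either way. Exact recurrence was thus present among the low tags of the gene as well as in its clusters. Sequence that allows mapping and any preference in cutting the RNA are shared by both brains, and their part in this was not tested.

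**Figure D4:**
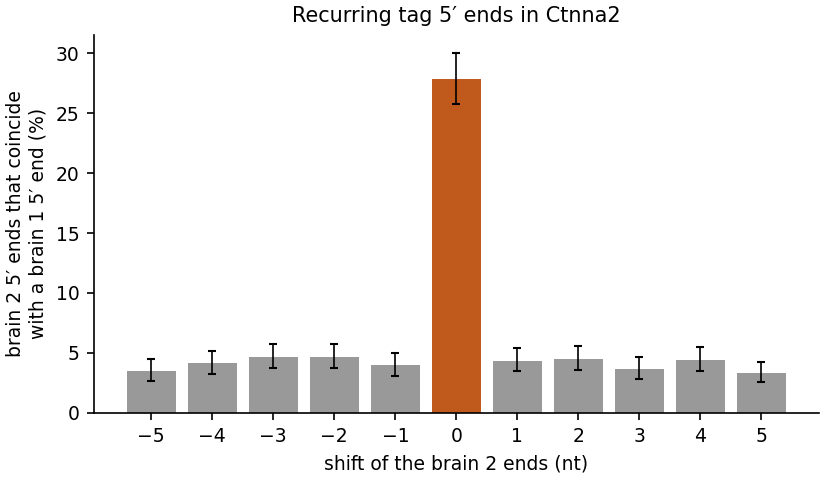
Share of the 1744 distinct 5′ ends of brain 2 in Ctnna2 that coincide with a 5′ end of brain 1, in percent with exact 95% intervals, without a shift (orange) and after shifts of 1 to 5 nt either way (grey). The share is 27.9% without a shift and between 3.33% and 4.64% after each shift.

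The level of Ctnna2 tags was compared between the brains, a difference the choice of the gene did not use. Counts were 525, 694, 779 and 540 in the libraries of brain 2 and 1416, 1111, 1021 and 1102 in those of brain 1. In CPM they were 1963, 2108, 2285 and 2364 in brain 2 and 2596, 2424, 2221 and 2347 in brain 1. Within libraries 1 and 2 both values of brain 2 lay below both of brain 1, whereas within libraries 3 and 4 the brains overlapped. The means were 2180 ± 180 in brain 2 and 2397 ± 157 in brain 1 (SD, n = 4 each), a difference of -217 that did not pass (exact permutation test, two-sided, p = 0.171, adjusted p = 0.514 over 6 values compared). With 4 against 4 libraries this test cannot give a p below 0.0286. After adjustment over the 6 values, a single value at that floor would still not pass. Not passing is thus weak evidence that the brains were alike. The direction depended on the scaling. With the trimmed-mean factors of the window comparison below in place of total tags, the means were 2320 ± 109 in brain 2 and 2247 ± 99.0 in brain 1, a difference of 73.2 (exact permutation p = 0.343, adjusted p = 0.686).

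The other 5 values per library also did not pass. The minus strand share of the range was 97.3 ± 0.826% in brain 2 and 98.0 ± 0.617% in brain 1 (exact permutation p = 0.229, adjusted p = 0.514). The share of Ctnna2 tags in clusters was 26.1, 26.7, 31.1 and 32.2% in brain 2 and 26.5, 27.3, 24.4 and 27.9% in brain 1 (exact permutation p = 0.257, adjusted p = 0.514). Its 2 highest values were those of libraries 3 and 4 of brain 2. These 2 libraries also had the higher shares of repeated positions within that brain. Tags that repeat the start and end of another tag in their library made up 8.95, 11.2, 16.7 and 28.0% of Ctnna2 tags in brain 2 and 16.5, 14.9, 17.9 and 19.6% in brain 1 (exact permutation p = 0.886, adjusted p = 0.886). With repeated positions of a library counted once, the difference in cluster share was 3.58 percentage points, against 2.51 with all tags, and did not pass (exact permutation p = 0.0571, adjusted p = 0.343). The linked stretch held 55.3 ± 1.12% of Ctnna2 tags in brain 2 and 56.0 ± 2.86% in brain 1 (exact permutation p = 0.686, adjusted p = 0.823, SD, n = 4). Mean tag length was 28.80 ± 0.0633 nt in brain 2 and 28.83 ± 0.0613 nt in brain 1 (exact permutation p = 0.457, adjusted p = 0.686).

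**Figure D5:**
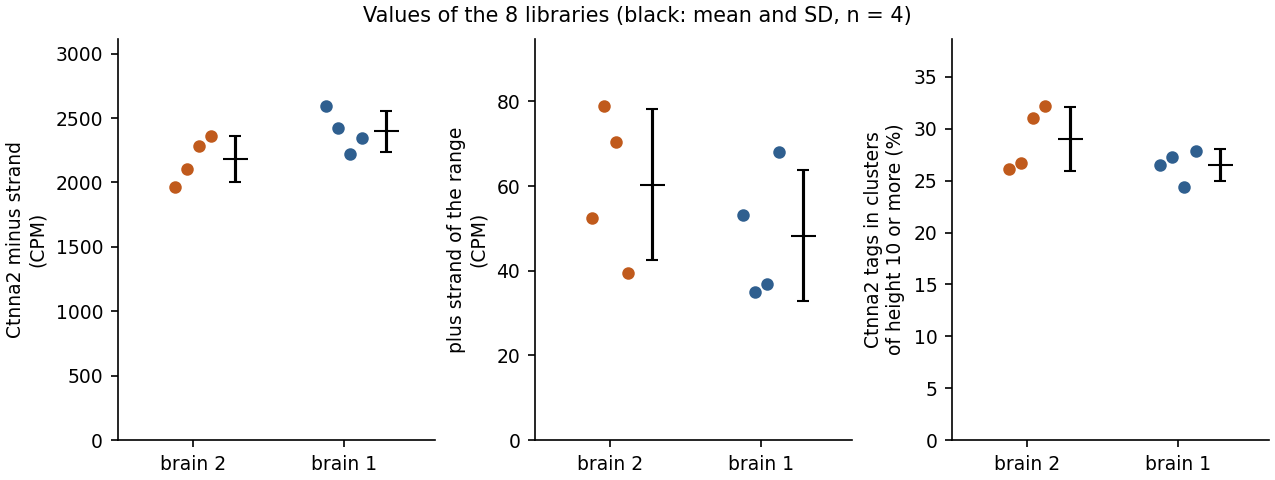
Values of the 8 libraries for brain 2 (orange) and brain 1 (blue), as CPM of Ctnna2 (left), CPM of the plus strand of the range (middle) and percent of Ctnna2 tags in clusters of height 10 or more (right), with the mean and SD in black (n = 4). The brains overlap in each panel, with Ctnna2 at 1963 to 2364 CPM in brain 2 and 2221 to 2596 in brain 1.

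Single stretches of the gene were compared with limma voom across all windows of the genome, after scaling the libraries by a trimmed mean of ratios. Of 3757 windows of 10 kb tested, 45 (1.2%) passed an adjusted p of 0.05. Ctnna2 had 33 of the tested windows, of which 0 passed (1 at an unadjusted p under 0.05, against 10.4% of all windows tested). Its median log2 change, brain 2 over brain 1, was 0.00 and that of all windows -0.00. In 2 of the 33 the libraries of the brains did not overlap, against 6.81% of all windows tested. The window at 77500001 had 52.8 ± 8.57 scaled CPM in brain 2, against 36.0 ± 4.47 in brain 1 (SD, n = 4). Its log2 change was 0.55 ± 0.23 (SE, limma voom adjusted p = 0.339). That at 77240001 had 21.1 ± 0.435 in brain 2, against 34.3 ± 4.38 in brain 1, and its log2 change was -0.60 ± 0.47 (limma voom adjusted p = 0.753). The window at 77240001 met the count filter in libraries of brain 1 only, where it was higher. It was thus tested because of that difference, and its lack of overlap is no support for one. The first window lies in the upstream part of the linked stretch and the second across its downstream limit. Such windows were about as frequent in Ctnna2 as among all windows tested. They were picked out after the data were seen, so their places and directions are descriptions.

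Broader windows of 100 kb gave more tags per test. The 11 whose midpoint lies in the range were tested, 0 passed the adjusted limma voom threshold and 2 had an unadjusted p under 0.05, while 0.632% of the 9975 windows of the genome passed and 12.1% had such a p. From the upstream end the log2 changes were 0.41, 0.30, 0.06, -0.24, -0.09, -0.05, -0.22, 0.04, -0.27, -0.56 and -0.21. The 3 of these windows nearest the upstream end were thus positive and 7 of the other 8 negative, all without passing. The values 0.06, -0.09, -0.05 and 0.04 were smaller in size than their SE (0.17, 0.10, 0.10 and 0.18), so their signs are not settled. Only the trimmed-mean scaling was fitted for windows of 100 kb. The largest positive value, at 77800001, came from 154 ± 33.5 scaled CPM in brain 2 and 114 ± 27.4 in brain 1 (SE of the log2 change 0.17, limma voom adjusted p = 0.304). The most negative, at 76900001, came from 52.5 ± 4.44 in brain 2 and 79.1 ± 15.4 in brain 1 (SE 0.23, limma voom adjusted p = 0.304). It was the 1 window of the 11 whose brains did not overlap, against 6.53% of all windows of 100 kb.

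Single clusters of Ctnna2 held few tags. None of the 104 passed the count filter, which left 466 clusters of the genome, of which 6 (1.29%) passed the adjusted threshold. Without the filter all 104 were tested with limma voom, 0 passed and 9 had an unadjusted p under 0.05. Of all 22803 clusters in that fit 0.0307% passed and 6.11% had such a p.

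Ctnna2 tags were slightly longer than the tags of the rest of the series. Tags ranged from 27 to 30 nt. The longest made up 49.9 ± 2.89% of Ctnna2 tags and 42.9 ± 1.77% of other tags (SD, n = 8 libraries), higher in Ctnna2 in 8 of 8 libraries. Mean length differed by 0.126 ± 0.0315 nt (SD of the difference), also longer in Ctnna2 in 8 of 8 libraries. Repeated positions made up 16.7 ± 5.73% of Ctnna2 tags and 11.7 ± 3.21% of the others, higher in 8 of 8 libraries. Such positions add to cluster height, and elsewhere the share of 30 nt tags rose with cluster height, as given below. The gene was chosen for its clustering, so the contrasts in length and in repeated positions are descriptions. Among single tags, 30 nt was reached by 43.6 ± 3.25% in Ctnna2 and 37.2 ± 1.54% elsewhere. In clusters of height 10 or more it was reached by 51.6 ± 2.40% in Ctnna2 and 49.1 ± 1.69% elsewhere, higher in Ctnna2 in 7 of 8 libraries. These differences were not particular to Ctnna2 among densely clustered loci. The Ctnna2 stretch was also set against the pooled stretches of the other linked groups described next. It differed by -0.145 nt in mean length and by -6.48 percentage points in repeated positions, lower in 8 of 8 libraries for both. Pooling gives groups with many tags more weight. Taken group by group, its share of repeated positions was 18.6%, against a median of 19.6% (rank 110 of 183 from the highest).

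Linking clusters within 20 kb gave 183 groups of 10 or more clusters over the genome, and the Ctnna2 group was compared with the 3 nearest to it in number of clusters. Its 73 clusters stood at 2.45 per 10 kb. A plus strand group of chromosome 16 (6809381 to 7201718), the nearest of the 3 in tags per kb and in the share of tags in clusters, had 93 clusters at 2.37 per 10 kb. Ctnna2 had 13.4 tags per kb and 36.3% of its tags in clusters, against 12.5 per kb and 37.3% there. A minus strand group of chromosome 11 (36386301 to 36694373) had 77 clusters at 2.50 per 10 kb, 16.4 tags per kb and 45.5% of tags in clusters. A minus strand group of chromosome 1 (170286615 to 170356868) was denser, with 71 clusters at 10.1 per 10 kb, 49.2 tags per kb and 63.8% of tags in clusters.

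The tags of Ctnna2 were spread over many sites rather than gathered in a few. Its tallest cluster held 1.58% of the tags of the stretch, rank 182 from the highest among the 183 groups, whose median was 6.39%. The corresponding share was 1.33% in the chromosome 16 group, 8.48% in the chromosome 11 group and 6.53% in the chromosome 1 group. A group with more clusters divides its tags among more sites, so this share falls with group size. From the highest, Ctnna2 was at rank 4 in number of clusters and rank 4 in span. It was at rank 87 in clusters per 10 kb, rank 79 in tags per kb and rank 87 in strand share (99.0%). It was at rank 130 in the share of tags in clusters, rank 123 in median gap and rank 110 in the share of repeated positions. Its rank was 146 in the share of 30 nt tags and 151 in mean length.

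Over the 8 libraries the Ctnna2 group had 1081, 1139, 1297 and 1305 CPM in brain 2 and 1375, 1320, 1268 and 1395 in brain 1. Its log2 change of mean level, brain 2 over brain 1, was -0.15, against a median of -0.21 over the 183 groups. Of the groups elsewhere, the log2 levels over the 8 libraries most like it were those of a minus strand group of chromosome 16 (67444701 to 67617377, Pearson 0.934). A plus strand group of chromosome 9 (28213506 to 28307818) had the same correlation to 3 digits, 0.934, and another minus strand group of chromosome 16 (75222705 to 75241088) had 0.930. They held 39, 20 and 11 clusters. With 8 libraries and 182 groups searched, high values of this kind are a description of the libraries alone.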

How the data were processed

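Ptbp2 HITS-CLIP tags of 8 libraries were read from the list the authors deposited, 1 line per mapped tag with position, strand and a name that gives the library. The deposited score column held 0 throughout and was not used. Bowtie (version not given) is named in the submitters' processing notes, as are 2 builds, mm9 and mm8. On chromosome 1 the tags reach position 197194446, which lies past the end of that chromosome in mm8, so positions are given as mm9, counted from 1. The sources used here do not say how repeated reads were collapsed. Columns without a sample numbered 0, and tags without a library 0.

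From these lines tags were counted by midpoint in strand-specific windows and by overlap of 1 nt or more in clusters of the pooled libraries. Intervals are exact Clopper-Pearson at 95%. The file as deposited lists tags and is no count table, so windows and clusters of the whole genome were fitted with limma 3.58.1 (voom, R 4.3.3), with p-values adjusted by Benjamini and Hochberg over all tested. A feature needed, in 4 libraries, the rate of 10 tags at median depth, and 15 tags in all. Scaling was by a trimmed mean of ratios (30% of ratios, 5% of levels). The fit was also run on simulated counts with an assumed spread, which does not show what it could detect in Ctnna2. Other steps used Python 3.11.15, pandas 2.3.3 and scipy 1.17.1.

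Sites named were the 20 tallest clusters, the 5 fullest windows of each strand, windows past the threshold (0 in Ctnna2), the 3 linked groups nearest in number of clusters and the 3 most like over libraries. Windows whose brains did not overlap, the limits of the linked stretch, recurring 5′ ends outside clusters and the comparison with the rest of the series were added after the data were seen. The members and lists were chosen with earlier results of these data known. A list of adherens junction genes was not analysed here, since no annotation of the files' build was at hand.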

Additional observations from a re-analysis of the deposited data

Results flagged for a closer look

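Of 32 sets of 4 libraries examined, 3 held a library set apart from the other 3 of its brain. Chance flags about 1 in 20 such sets. In the window at 77390001, library 4 of brain 2 had 74.4 CPM, and the other libraries of that brain 55.7 to 57.7. In the cluster at 77497412, library 3 of brain 2 had 23.5 CPM, and the others 8.76 to 11.2. In the window at 77400001, library 4 of brain 1 had 113 CPM (112.9), and the others 78.6 to 80.7.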

How the results depend on the processing

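Of 235 alternative values for the results of Ctnna2, 210 kept their direction, their side of the threshold and, for numbers and shares, their size within a broad tolerance. A number of 74 clusters, against 104 with all libraries, still counted as kept. So did a median gap of 5486 nt, against 3760 nt. In each alternative, 0 windows and 0 clusters of Ctnna2 passed. For clusters this was mostly fixed in advance. Only the fit without the count filter tested all 104, and each other alternative tested 0 or 1 cluster of Ctnna2. Such alternatives count among the 210. The number of clusters was 314 at a height of 5 or more, 30 at 20 or more and 59 with repeated positions of a library counted once. The median gap was 1138, 14214 and 5969 nt under the same settings. The overlap share of brain 2 clusters was 61.4% at a height of 3 or more.

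With each library left out in turn, the number of clusters ran from 74 to 90, the median gap from 3979 to 6224 nt and the overlap share from 56.8 to 82%. The difference in stretch share ran from -2.25 to 1.43 percentage points, and was positive without library 4 of brain 1 (1.43), library 2 of brain 2 (0.307) or library 4 of brain 2 (0.0110). The difference in repeated positions ran from -4.95 to 1.38, positive without library 1 (1.38) or library 2 (0.620) of brain 2. Neither difference passed in any of these, where the adjustment again kept a single value from passing. The cause was not tested.

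Against the pooled tags of the other linked groups, the differences of Ctnna2 in repeated positions (-6.48 percentage points) and mean length (-0.145 nt) were reversed. This alternative was added after the data were seen and takes only densely clustered loci on both sides. The log2 change of the window at 77250001 was -0.11 by total tags, -0.050 without the count filter, -0.040 without library 2 of brain 1 and -0.010 without library 3 of brain 2; with each library left out it ran from -0.040 to 0.159. That of the window at 77470001 was 0.011 with repeats counted once. Scaling by total tags moved the median log2 change of all windows to -0.21 and that of Ctnna2 to -0.18.

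The difference in Ctnna2 CPM was likewise reversed, to 73.2, with trimmed-mean factors from the windows tested (exact permutation p = 0.343, adjusted p = 0.686). It was -132 with factors from all windows of 20 tags or more, added after the data were seen (exact permutation p = 0.2, adjusted p = 0.514). Over all its alternatives the adjusted p ran from 0.257 to 0.75. Libraries of the same number in brain 2 and brain 1 did not deviate together (correlations -0.013, -0.032, -0.012 and -0.0062), so the numbers were not taken as a pairing. With the replicate number as a block, the differences kept their values (-217 CPM) and gave adjusted p = 0.75 in the exact permutation test, where 4 pairs cannot give a p below 0.125. The block gave 0 calls in 33 windows. Depth limited the comparison of clusters, since with all libraries 0 of the 104 reached the count filter.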
